A study of Mus musculus with 24 samples.

Results

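The open chromatin of resting wild-type macrophages was described from the 4 vehicle libraries of an ATAC-seq series of 24 libraries in 6 groups of 4, chosen by their titles, with no comparison between treatments. ATAC-seq uses a transposase that cuts and tags DNA where it is not wrapped in nucleosomes, so the count of reads in a peak measures how open that stretch of DNA is. The macrophages were grown from bone marrow of male mice aged 8 to 10 weeks, for 5 days in medium with bovine serum (20%) and medium conditioned by L cells (10%), which supplies the growth factor CSF1. The cells were C57BL/6 with the genotype GRIP1 wt/wt and LysM-Cre +/+, so they were wild type for the coactivator GRIP1 but carried the Cre recombinase that is made in myeloid cells. They received vehicle only, for 24 hours by the titles and 25 hours by the treatment label. Whether the 4 libraries are separate mice or cultures is not in the labels, so every spread below is one between libraries.

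The count table held 144411 peaks, and all but 2 of them had at least 1 count in these libraries, which gave 144409 peaks. Libraries 1 to 4 held 13224169, 9119982, 9628590 and 9700276 counts in peaks, and the median peak held 23 counts per library. CPM (counts per 1000000 counts of the library) is used to rank peaks as a whole, and CPM per kb divides it by the length of the peak. Over peaks with enough counts the biological coefficient of variation, which is the spread left after counting error, was 6.19% over the 4 libraries, and 3.65% to 7.99% over the 6 pairs. Without library 1 it was 4.61%. Pairs of libraries correlated at r = 0.971 to 0.974 across peaks on the log2 CPM scale, which is a description, since peaks are not replicates. No pair of libraries agreed within sampling noise, with a chi-square per degree of freedom of 1.22 to 1.87.

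Macrophages take their identity from transcription factors such as PU.1 (Spi1) and the C/EBP proteins, which bind enhancers far from genes and open them, while the promoters of genes that all cells use are open in nearly every cell type. Promoters of this common kind are rich in CpG dinucleotides and hold GC boxes, which bind SP-family factors, and CCAAT boxes, which bind NF-Y. Genes of other lineages are usually closed, or are marked by a weakly open promoter. Interferon-stimulated genes are held at a low level by tonic interferon and carry a response element for STAT and IRF factors.

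The promoters at the extremes of the landscape differed visibly in sequence. The 8 windows below are the 250 bases before the RefSeq start site (build GRCm38.p6, which has the mm10 coordinates), 5′ to 3′ on the strand of the gene, chosen after the levels were known. Capitals mark every match on either strand to the GC box GGGCGG, to CCAAT and to the interferon response motif, which is GAAA, any 2 bases and GAAA again. Khsrp (chr17:57031508-57031757, minus strand) and Osbp (chr19:11965594-11965843, plus strand) are shown because their promoter peaks were among the 3 highest per kb.
Khsrp: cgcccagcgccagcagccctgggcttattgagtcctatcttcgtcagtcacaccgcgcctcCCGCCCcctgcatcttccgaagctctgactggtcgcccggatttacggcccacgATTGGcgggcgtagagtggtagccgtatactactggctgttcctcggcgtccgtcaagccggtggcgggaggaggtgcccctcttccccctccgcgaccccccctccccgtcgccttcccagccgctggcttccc
Osbp: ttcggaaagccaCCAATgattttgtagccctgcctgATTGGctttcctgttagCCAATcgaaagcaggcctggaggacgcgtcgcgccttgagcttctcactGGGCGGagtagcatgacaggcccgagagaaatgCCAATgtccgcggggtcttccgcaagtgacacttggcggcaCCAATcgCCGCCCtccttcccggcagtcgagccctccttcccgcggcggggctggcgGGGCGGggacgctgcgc
Cd68 (chr11:69666171-69666420, minus strand) and Lyz2 (chr10:117282273-117282522, minus strand) are shown as promoters of macrophage genes with high levels.
Cd68: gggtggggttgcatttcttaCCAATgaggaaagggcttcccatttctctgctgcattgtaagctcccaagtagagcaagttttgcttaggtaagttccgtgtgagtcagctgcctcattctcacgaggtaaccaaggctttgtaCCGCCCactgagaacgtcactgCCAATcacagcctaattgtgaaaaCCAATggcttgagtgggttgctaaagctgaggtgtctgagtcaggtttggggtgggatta
Lyz2: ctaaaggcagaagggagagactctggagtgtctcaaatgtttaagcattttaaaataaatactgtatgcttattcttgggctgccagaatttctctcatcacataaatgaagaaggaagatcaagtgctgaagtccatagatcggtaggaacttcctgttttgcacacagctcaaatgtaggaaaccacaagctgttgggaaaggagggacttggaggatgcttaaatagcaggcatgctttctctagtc
Isg15 (chr4:156200819-156201068, minus strand) and Rsad2 (chr12:26456453-26456702, minus strand) are interferon-stimulated genes whose promoters varied between the libraries.
Isg15: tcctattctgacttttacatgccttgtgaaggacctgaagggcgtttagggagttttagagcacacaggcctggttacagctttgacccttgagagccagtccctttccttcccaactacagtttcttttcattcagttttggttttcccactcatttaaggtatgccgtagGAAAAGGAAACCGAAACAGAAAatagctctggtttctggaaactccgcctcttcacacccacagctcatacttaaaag
Rsad2: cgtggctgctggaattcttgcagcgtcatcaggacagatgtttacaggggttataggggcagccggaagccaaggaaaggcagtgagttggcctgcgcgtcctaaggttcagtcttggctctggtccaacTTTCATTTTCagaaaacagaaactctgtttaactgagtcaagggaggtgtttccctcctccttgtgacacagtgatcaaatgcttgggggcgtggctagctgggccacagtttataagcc
Alb (chr5:90460620-90460869, plus strand) and Ckm (chr7:19410844-19411093, plus strand), markers of liver and muscle, had no promoter peak.
Alb: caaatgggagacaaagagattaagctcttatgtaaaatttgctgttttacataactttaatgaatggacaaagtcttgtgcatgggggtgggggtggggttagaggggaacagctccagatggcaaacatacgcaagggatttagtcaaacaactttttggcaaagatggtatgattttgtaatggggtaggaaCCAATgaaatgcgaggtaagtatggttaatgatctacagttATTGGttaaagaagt
Ckm: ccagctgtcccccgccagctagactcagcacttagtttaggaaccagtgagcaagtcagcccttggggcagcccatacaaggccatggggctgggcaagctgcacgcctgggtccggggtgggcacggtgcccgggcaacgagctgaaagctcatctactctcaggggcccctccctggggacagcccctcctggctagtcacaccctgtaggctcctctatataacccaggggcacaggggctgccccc
The Khsrp window held 24 CpG dinucleotides, 1 GC box and 1 CCAAT box, and the Osbp window 23 CpG dinucleotides, 3 GC boxes and 5 CCAAT boxes. CCAAT boxes did not separate open from closed windows, with 3 in Cd68 and none in Lyz2, against 2 in Alb and none in Ckm. The Cd68 window held 4 CpG dinucleotides and the Lyz2 window 1, against 2 in the Alb window and 6 in the Ckm window. The windows of these 2 open macrophage promoters were thus as poor in CpG as those of the 2 closed ones. Isg15 held 3 overlapping matches to the interferon motif and Rsad2 held 1.

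Across all promoters, CpG content went with the level of the peak. Among 32807 RefSeq promoter windows of 300 bases (250 before and 50 after the start site), the median ratio of observed to expected CpG was 0.203 where no peak lay within 1 kb. It was 0.429 where the highest such peak was below the median of all peaks, 0.632 from the median to the 90th percentile, and 0.816 in the top 10% of CPM per kb. The median G and C content was 47.0%, 55.3%, 57.7% and 62.7% in the same order. A GC box, searched as GGGCGG on both strands, was found in 11.6% of windows without a peak, 40.0% of windows below the median, 49.3% from the median to the 90th percentile and 70.7% of the top 10%, against 35.6% of all windows. The TATA box, searched as TATAAA on both strands, ran the other way: it was in 20.2% of windows without a peak, 11.0%, 8.9% and 5.4% of the others, and 13.6% of all. Listed macrophage genes did not follow the order of CpG. Although 61 of the 65 have an open promoter, the 62 windows, which cover 46 list genes, had a median CpG ratio of 0.389. The 18 windows of interferon-stimulated genes had 0.354 and the 16 of inducible inflammatory genes 0.382, against 0.844 in 13 housekeeping windows and 0.383 in all windows. A GC box was in 53.2% of the macrophage windows, between the 49.3% and 70.7% of the groups with the highest levels. TATAAA was in 17.7% of them, above the 13.6% of all windows. CCAAT, searched on both strands, showed no order with the level of the peak. It was in 38.9% of windows with no peak, 31.3% below the median, 30.8% up to the 90th percentile and 42.9% of the top 10%. The part of base content itself in these levels was not tested, and a motif match is a description of letters, not a binding site.

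Promoter peaks were few but took the largest share of the counts of the 4 classes. A peak was called promoter when its middle lay within 1 kb of a listed transcription start site (TSS), and distal when it lay over 10 kb from any. A peak within 1 kb of an end of a RefSeq gene with no TSS listed there was called gene end, and the rest were proximal. The 18519 promoter peaks were 12.8% of all peaks and held 41.5 ± 0.258% of the counts (SD, n = 4 libraries). The 79782 distal peaks were 55.2% of all peaks and held 32.9 ± 0.152%. Proximal peaks (37312) held 19.9 ± 0.0972% and gene-end peaks (8798) held 5.67 ± 0.0359%.

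Per kb, promoter peaks had median levels of 15.3, 15.5, 14.9 and 15.6 CPM per kb in libraries 1 to 4. Distal peaks had 5.24, 5.07, 5.00 and 5.34 CPM per kb, so the classes did not overlap in any library. The log2 difference was 1.57 ± 0.03 (SD, n = 4), with the smallest p that 4 libraries allow, 2 of 16 sign patterns, in the exact sign-flip permutation test of both sides over libraries. Promoter peaks were also longer, with a median of 854 bases against 354 for distal peaks, and without scaling by length the log2 difference was 2.92. The 75th percentile of distal peaks was 8.64 CPM per kb and the 25th percentile of promoter peaks 5.61, so single peaks of the classes overlapped widely.

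**Figure D1:**
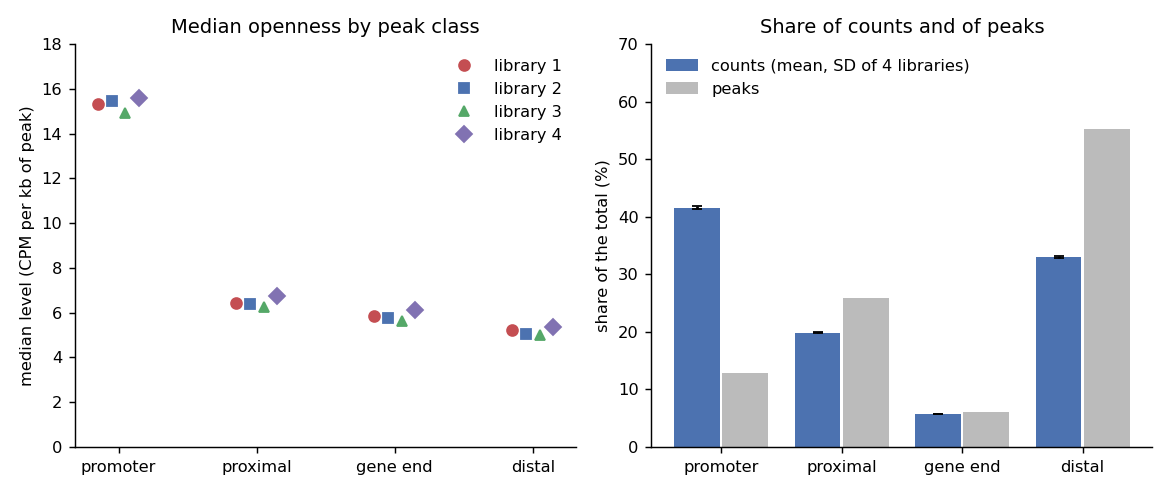
Left, median level of each peak class in CPM per kb, with 1 symbol per library. Right, share of all counts (blue, mean with SD of 4 libraries) and share of all peaks (grey) in each class, in percent. Promoter peaks sit near 15 CPM per kb in every library and hold 41.5% of counts in 12.8% of peaks.

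Counts were concentrated in few peaks. The 1444 highest peaks by mean CPM (the top 1%) held 13.6 ± 0.205% of all counts, and the top 10% held 56.2 ± 0.58%. Of the top 1%, 83.2% were promoter peaks and 6.37% were distal, and 83.4% were 1 kb or longer. The ranking depends on length: of the 1000 highest peaks by CPM, 550 were also among the 1000 highest by CPM per kb, 55% of each list.

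The most open promoters by CPM were those of 4930526I15Rik, Sp1 and Kpnb1. The highest was at 4930526I15Rik, a gene without a described role, with 264, 238, 234 and 243 CPM in libraries 1 to 4. Next were Sp1, a GC-box binding factor, with 240, 243, 255 and 228 CPM, and Kpnb1, the nuclear import receptor importin beta, with 213, 219, 229 and 203 CPM. The other members of the top 10 ran from 197 CPM at Khsrp to 174 CPM at Mtmr4 and lay at Srgap2, Cic, 4932412D23Rik, Crlf2 and Sp4. Sp4 is of the same family as Sp1, and Crlf2 is a subunit of the receptor for thymic stromal lymphopoietin.

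Per kb the highest promoter was that of Khsrp, an RNA-binding protein of splicing and mRNA decay, at chr17:57031391-57032339. It held 207, 205, 224 and 193 CPM per kb, a mean of 207 ± 12.8 (SD, n = 4). The second peak (chr17:56078923-56079804) lay between the start sites of Hdgfl2, a chromatin-binding protein, and Ubxn6, with 173 ± 8.46 CPM per kb, so its level cannot be given to one of the 2 genes. Osbp, which carries sterols between membranes, followed with 170 ± 8.83 CPM per kb. The next 7 held 162 to 148 CPM per kb, so neighbours in this order lay within the SD of each other. They were Mtmr4 (a lipid phosphatase), Cic (a transcriptional repressor), Ap2a1 (a subunit of the clathrin adaptor), Ski (a SMAD corepressor), Ing1 (a reader of histone marks), Pisd-ps1 and Gatad2a (a subunit of the NuRD complex). Pisd-ps1 is a pseudogene, and reads shared with its parent gene cannot be told apart here. None of the 10 was a gene of the macrophage lists. The highest promoter of those lists was that of Junb, an AP-1 subunit, with 108, 109, 101 and 104 CPM per kb.

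The highest distal peaks were of another kind. The highest was at chr2:98666245-98667321, 43.6 kb from the nearest listed start site, with 1426, 1666, 1535 and 1756 CPM per kb in libraries 1 to 4. By CPM it held 1718 ± 156, against 245 ± 13.4 at the highest promoter peak. A further pair of peaks of the same stretch of chromosome 2 held 654 and 627 CPM per kb. Next came chr9:35305217-35305591 with 602 ± 66.5 CPM per kb and chr6:103649051-103649291, upstream of the neural adhesion gene Chl1, with 503 ± 40.5. The rest of the top 10 per kb held 224 to 168 CPM per kb, on chromosomes 11, 12, 14, 5 and 3. By CPM the list also held 3 peaks at the start of chromosome 9, of 713, 482 and 402 CPM, 1 of which was 16969 bases long, the longest of the table. Its last 3 members, near Ly6c2, Gm39123 and Zfp825, held 147, 140 and 140 CPM.

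The start of chromosome 9 and the stretches on chromosomes 2 and 14 are known as repeated sequence with high counts in many mouse sequencing assays. No list of such regions was applied here. In all, 12 distal or gene-end peaks on 7 chromosomes stood above the highest promoter peak by CPM or by CPM per kb. The largest of them by CPM, chr17:39843034-39848776 with 2154 ± 281 CPM, covers Rn18s-rs5, which RefSeq lists as a ribosomal RNA pseudogene. Together they held 0.643%, 0.755%, 0.691% and 0.808% of the counts of libraries 1 to 4. Their share was lowest in library 1, the deepest library.

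Distal peaks that overlap an enhancer listed by FANTOM gave a different top. FANTOM maps enhancers from the short RNAs transcribed at them, and the authors' table marks such peaks, so these were listed after the levels were seen. In that table, 5354 marked distal peaks had a median level of 12.8 ± 0.161 CPM per kb (mean and SD of 4 libraries). The 34401 unmarked distal peaks had 6.77 ± 0.147 CPM per kb, and the libraries of the 2 sets did not overlap. Marked peaks were also longer, with a median of 622 bases against 495. The highest marked peak lay 10.0 kb upstream of Aacs, a ketone-body enzyme, with 114 ± 4.43 CPM per kb. The peak nearest to Nt5e, the ectoenzyme CD73, by the deposited table held 108 ± 11.7 CPM per kb, and lay closer to the predicted gene Gm28231. A peak 45.6 kb downstream of the start of Pik3ap1, an adaptor that links Toll-like receptors and PI3 kinase, held 106, 106, 112 and 99.1 CPM per kb. One at chr4:133910305-133911283 upstream of the kinase gene Rps6ka1 held 97.1, 96.2, 92.6 and 93.3 CPM per kb. The 10 highest marked peaks ran from 114 down to 91.4 CPM per kb, below the 10 highest promoter peaks.

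**Figure D2:**
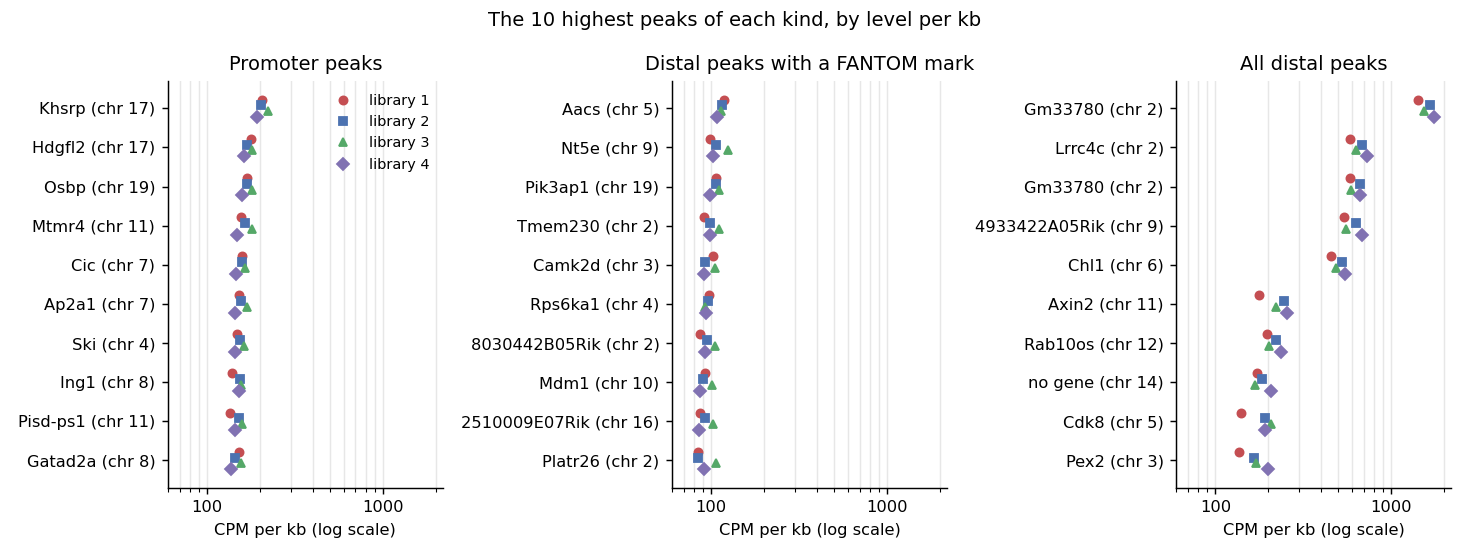
Levels in CPM per kb (log axis) of the 10 highest promoter peaks, the 10 highest distal peaks with a FANTOM mark and the 10 highest of all distal peaks, with 1 symbol per library and the assigned gene and chromosome at the left. Promoter peaks lie between 148 and 207 CPM per kb on average, marked distal peaks between 91.4 and 114, and the unselected distal list reaches 1596.

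Genes with the most peaks were Dock10, Pde4d, Lpp and Nav2. The peaks were those of the whole series, with no minimum level set here, so weakly open ones were counted too. Peaks took the gene of the authors' table, or the nearest listed TSS within 50 kb, and the nearest gene need not be the one a peak regulates. In this way 24449 genes had a peak, with a median of 4, and 3659 genes had 10 or more. Only 22 genes had 50 or more, and 11203 peaks had no gene. Dock10, an exchange factor for small GTPases, had the most, with 79 peaks, 58 of them distal. Pde4d, a cyclic AMP phosphodiesterase, had 76 peaks and Lpp, a protein of adhesion sites, had 75. Nav2 also had 75, and Tns3, a tensin of focal adhesions, had 73. Of the peaks of Dock10, Pde4d, Lpp and Nav2, 34, 49, 48 and 35 were at or above the median of all peaks per kb.

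Regulators of transcription in this top 15 were Foxp1 (70 peaks), Zfp608 (69), Maf (64), the Mediator subunit Med13l (60) and Runx1 (55). Signalling and cytoskeletal genes were Pik3r1, the regulatory subunit of PI3 kinase, with 61 peaks, and Akap13, a kinase anchor, with 60. Elmo1, which works with DOCK proteins in engulfment, and the exchange factor Vav3 had 58 each, and Asap1 had 56. Gene length went with the count in part: Spearman's rho was 0.367 across 24097 genes, a description across genes. Maf stood out against that, since its RefSeq gene is 3.64 kb long and its 64 peaks were spread over 918 kb, 57 of them distal. Its peaks held 484, 481, 476 and 455 CPM in all in libraries 1 to 4. Tns3 held the most counts of the 15, with 486, 525, 535 and 519 CPM.

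**Figure D3:**
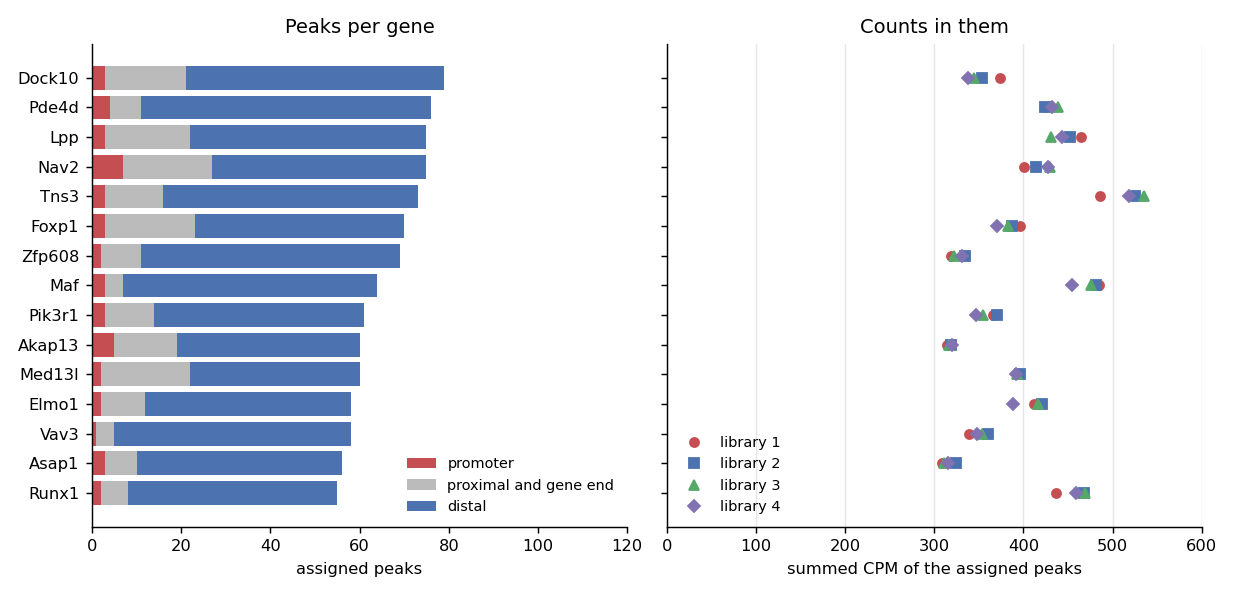
Left, number of assigned peaks of the 15 genes with most peaks, split into promoter, proximal or gene-end, and distal peaks. Right, summed CPM of those peaks with 1 symbol per library. Dock10 leads with 79 peaks, while Tns3 holds the most counts, a mean of 516 CPM.

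Counting only peaks in the top 10% by CPM gave another order, compiled after the values were seen. Sfi1, a centrosome gene, led with 20 such peaks of 30, which lay within 66.2 kb of chromosome 11 and had a median of 49.0 CPM per kb. All 30 were at or above the median of all peaks per kb, and they held 848, 902, 822 and 1000 CPM in libraries 1 to 4. The stretch starts at base 3130829, near the Pisd-ps1 promoter peak, which ends at base 3124204. How reads that match several places were counted is not known, and the part of repeated sequence in the Sfi1 count was not tested. Irf2bp2, a corepressor that binds IRF2, followed with 13 of 46 peaks, and its peaks held 661, 716, 724 and 712 CPM in libraries 1 to 4. Chd7, a chromatin remodeller, and Tns3 had 10 each, as did Irf2, a repressor of interferon responses. Zc3h12a, an RNase that degrades cytokine mRNAs, Tnfrsf1b, the receptor TNFR2, and Fos had 8 each. All 16 peaks of Tnfrsf1b were at or above the median of all peaks per kb. The microRNA gene Mir21a had 7 of 17 peaks in the top 10%.

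The label was checked against macrophage genes. Of 65 genes on 3 macrophage lists, 63 had a promoter peak and 61 had an open promoter, defined as a promoter peak at or above the median level of all peaks, 5.84 CPM per kb. Over all 31296 genes with a listed TSS the share was 46.0%. The median promoter level of the list genes with a promoter peak was 25.0, 24.8, 24.1 and 23.6 CPM per kb in libraries 1 to 4, against 20.1, 20.3, 19.5 and 20.3 over all genes with one. Promoters in the top 10% of all peaks numbered 33 of the 65, against 24.8% of all genes. With only the peaks of the deposited comparison table, which holds 71942 of the 144411 peaks, 25 macrophage and 21 other-lineage genes had an open promoter. The promoters of the defining genes Spi1, Csf1r, Adgre1, Itgam and Cd68 were all open.

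All 20 macrophage transcription factors had an open promoter, and 15 lay in the top 10%. After Junb the highest were Irf5, which drives inflammatory cytokines, with 52.4 CPM per kb, Klf4, a monocyte factor, with 52.1, and Ets2 with 51.0. The master regulator Spi1 had 26.2, 25.6, 24.1 and 22.01 CPM per kb. Cebpa had 31.9, 33.6, 31.0 and 32.9 and Cebpb 37.1, 35.7, 35.4 and 35.5 CPM per kb, both above Spi1 in every library. The lowest were Tfec, a relative of MITF, with 6.06 ± 0.654 CPM per kb, just above the limit for open, and Pparg, a nuclear receptor of lipid metabolism, with 10.6 ± 1.11. As a group these genes were rich in peaks, with a median of 17 each and 440 in all, against a median of 4 over all genes with a peak.

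Of 25 surface receptors, 22 had an open promoter. Cd68, an endosomal glycoprotein used as a macrophage marker, was highest with 71.5, 73.8, 77.1 and 71.1 CPM per kb, from the single peak assigned to it. Sirpa, the receptor for CD47, had 66.3 ± 2.08 CPM per kb, and the growth factor receptors Csf2ra and Csf1r had 41.0 ± 1.48 and 39.6 ± 2.88. The lowest were Mrc1, the mannose receptor, with 8.22, and the monocyte chemokine receptor Ccr2, with 0.96, 3.25, 1.32 and 1.75 CPM per kb, at percentile 5.31 of all peaks. Itgb2, the common chain of the leukocyte integrins, and Axl, a receptor for dying cells, had no promoter peak, but 5 and 11 assigned peaks elsewhere.

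Of 20 lysosome and phagocyte effectors, 19 had an open promoter. Ncf4 and Ncf1, subunits of the phagocyte oxidase, had 46.3 and 44.0 CPM per kb, and the protease cathepsin D (Ctsd) had 44.6. Lyz2, the lysozyme gene that carries the inserted Cre in these mice, had 32.2, 39.5, 35.4 and 22.6 CPM per kb in a short peak. Cybb, the catalytic subunit of the same oxidase, had 7.65 ± 1.28 CPM per kb and Acp5, a phosphatase of osteoclasts, 6.25. Atp6v0d2, a proton pump subunit, was the 1 member below the limit, with 3.16, 3.96, 4.34 and 5.29 CPM per kb.

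Outside promoters, these genes often had a more open peak than at their start. Of 62 list genes with both kinds of peak, 43 (69.4%) had an assigned peak outside promoters with more CPM per kb than the promoter peak, against 42.0% of all genes with both. The highest of several peaks rises with their number, which was a median of 10.5 for these genes and 4 for all. Over the 14 lists of other lineages the share was 80.7% of 83 genes, with lower levels on both sides, and for housekeeping genes it was 4 of 15. So the share did not set macrophage genes apart, but the levels differed: the median highest outside peak was 31.5 CPM per kb for macrophage genes, 14.8 for the other lineages, 18.5 for housekeeping genes and 12.7 for all. These levels can also rise with the number of outside peaks, a median of 6 for the other lineages and 5 for housekeeping genes. The part of that number was not tested.

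The examples here are genes whose outside peak stood above the promoter per kb, or that had no promoter peak. Others of the 62 went the other way, such as Cebpa with 16.7 against 32.3 CPM per kb at its promoter and Tyrobp with 14.9 against 38.6. The highest outside peak of Spi1, chr2:91086369-91086641, lay 10.2 kb upstream with 62.3, 72.7, 63.9 and 67.6 CPM per kb. It is 273 bases long, and without scaling by length it held 18.2 CPM, below the 30.2 CPM of the 1232-base promoter peak. Csf1r, which is known to carry an intronic enhancer, had its highest one 2.52 kb downstream of a listed start, with 49.9, 53.0, 52.4 and 52.2 CPM per kb. Itgam, the CD11b chain, had one 11.7 kb upstream with 68.2 ± 6.57 CPM per kb, against 34.3 at its promoter. The peak 8.66 kb downstream of the start of Cybb held 36.1, 35.2, 36.5 and 35.8 CPM per kb. Ccr2, whose promoter was nearly closed, had a peak 30.5 kb upstream with 29.2 ± 1.44 CPM per kb. Itgb2 and Axl, without a promoter peak, had peaks of 53.3 and 34.4 CPM per kb 9.14 kb downstream and 2.18 kb upstream of a start.

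Genes of other cell types were mostly closed or weakly open when all 14 lists were pooled. Of 177 genes on 14 lists, 170 had a listed TSS. Of these, 44 (25.9%) had an open promoter, 45 had a promoter peak below the limit and 81 had none, against 46.0% open over all genes. A promoter peak of any level was found for 52.4% of them, close to the 57.1% of all genes. The lists thus differed from all genes more in level than in the lack of a peak. The median promoter level of those with a peak was 6.02, 5.68, 6.28 and 5.85 CPM per kb in libraries 1 to 4. The log2 difference of macrophage genes over these was 2.03 ± 0.08 (SD, n = 4), again with the smallest p possible, 2 of 16 sign patterns, in the exact sign-flip permutation test. Both sets of genes were chosen for their known expression, so the direction is not independent evidence. Only members with a promoter peak enter these medians, and in bulk samples a few cells with an open promoter and low openness in all cells cannot be told apart.

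The most silent lists were muscle and liver. None of 10 muscle genes and 1 of 11 liver genes had a promoter peak: Foxa2, with 4.57, 0.442, 0.419 and 2.49 CPM per kb. Muscle genes without one were Myf5, Myog, Myh6, Myh7, Tnnt2, Nkx2-5, Actc1, Ckm, Des and Tbx5, and liver genes without one included Alb, Afp, Hnf4a, Apoa1, Ttr, Serpina1a, Cyp2e1, Tat and Fgb. Over all 14 lists, 14 genes had neither a promoter peak nor an assigned peak. An assigned peak was found for 156 of the 170 genes with a listed TSS, against 24449 of 31296 over all genes. Genes of these lists thus lacked one less often than genes at large. Besides Actc1, Ckm, Serpina1a, Cyp2e1, Tat and Fgb the genes without any were Cd79a and Vpreb1 (B cell receptor components), Cd3g (T cell receptor), Fcer1a (mast cell), Hba-a1 and Hbb-bt (globins), Dcx (young neurons) and Zfp42 (stem cells).

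Lymphoid genes were closed with few exceptions. Of 18 T and NK cell genes 3 had an open promoter, and Cd3e, Cd3d, Cd3g, Cd4, Cd8a, Lck, Zap70, Ncr1, Gzma and Themis had no promoter peak. The exceptions were Gata3, the factor of type 2 T helper cells, with 37.3, 37.5, 33.7 and 36.2 CPM per kb, the NK receptor gene Klrb1c with 19.1, and Cd28 with 7.37. Of 12 B cell genes 4 were open, led by Blnk, a signalling adaptor, with 15.9 ± 2.25 CPM per kb, while Pax5, Ms4a1, Cd79a, Vpreb1, Igll1 and Fcer2a had no promoter peak.

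Myeloid and progenitor lists differed among themselves. Dendritic cell genes were open in 7 of 12 (58.3%) and stem and progenitor genes in 6 of 12 (50%), at or above the 46.0% of all genes, so these lists were not closed. The dendritic cell list was led by Tcf4 with 37.0 CPM per kb, while Xcr1, Clec9a, Itgae and Ccr7 had no promoter peak. Of 16 neutrophil genes 6 were open, with S100a8 at 20.8 ± 3.3 and Camp, an antimicrobial peptide, at 20.3 CPM per kb. The granule protease genes Elane, Mpo and Prtn3 had no promoter peak, nor did Ly6g and Retnlg. Open stem and progenitor genes ran from Lmo2 with 17.9 CPM per kb to Hoxb4 with 10.5. Of 10 mast cell and basophil genes 1 was open, the factor gene Gata2 with 9.18, while Kit, of the same list, had 3.24 CPM per kb. Among erythroid and megakaryocyte genes 4 of 13 were open, led by Itga2b, an integrin of platelets, with 28.4 CPM per kb, while Gata1, Klf1 and Alas2 had no promoter peak.

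In the structural and nervous lists, 2 of 11 fibroblast genes, 3 of 10 endothelial genes, 1 of 10 epithelial genes and 5 of 14 neuronal genes were open. Their highest members were Pecam1, which leukocytes also carry, with 20.1 CPM per kb, the neuronal tubulin Tubb3 with 15.3, the matrix gene Postn with 11.5 and the epithelial factor Elf3 with 8.75. Col1a1, Col1a2, Col3a1 and Pdgfra had no promoter peak, nor did Cdh5, Tie1, Krt8, Krt18 and Krt5. Krt14 had the lowest promoter of all list genes with a peak, with 2.36, 0.685, 0.649 and 0 CPM per kb. Of 11 pluripotency and germ cell genes 2 were open: Dazl, an RNA-binding protein of germ cells, with 45.8, 42.6, 39.1 and 45.0 CPM per kb, and Pou5f1, with 3.86, 10.1, 6.36 and 5.26, close to the limit. Dazl and Gata3 were 2 of only 4 other-lineage promoters in the top 10%, with Itga2b and Tcf4.

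**Figure D4:**
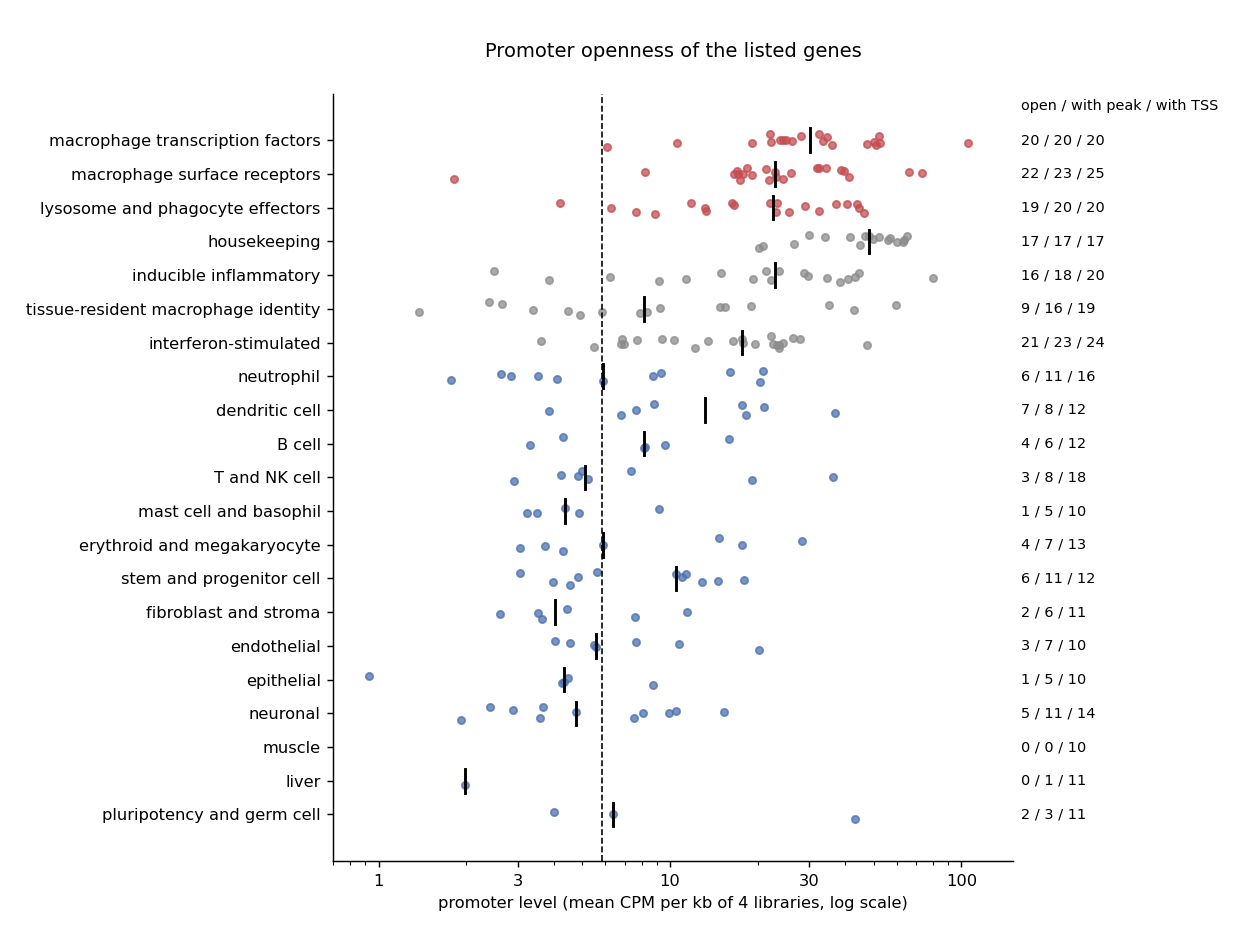
Promoter level of each listed gene (mean CPM per kb of 4 libraries, log axis), by list; the black bar is the median over members with a promoter peak and the dashed line is the limit for an open promoter, 5.84 CPM per kb. Numbers at the right give genes open, with a promoter peak and with a listed TSS; macrophage lists (red) are open in 61 of 65 genes and other-lineage lists (blue) in 44 of 170.

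Most listed genes that macrophages induce on stimulation had an open promoter at rest. Of 20 inducible inflammatory genes 16 (80%) had an open promoter, against 46.0% of all genes with a listed TSS. The list median was 23.2 ± 1.33 CPM per kb, against 19.5 to 20.3 in the libraries over all genes with a promoter peak. Nfkbia, the inhibitor of NF-kB, had 81.6, 83.0, 78.0 and 77.0 CPM per kb, Socs3, an inhibitor of cytokine signalling, 44.4, and the chemokine gene Ccl3 43.1. Cytokine genes were lower: Tnf had 28.9 ± 4.08 CPM per kb, Il1b 21.3 and Il6 19.3. Il12b had 2.49 and Ifnb1 3.84 CPM per kb, below the limit, and Cxcl9 and Ccl5 had no promoter peak. All 17 housekeeping genes were open, with a list median of 48.0 ± 1.3 CPM per kb.

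Markers of macrophages resident in tissues were open in 9 of 19 (47.4%), near the 46.0% of all genes. Id3, a factor of Kupffer cells, had 59.6 CPM per kb and Hmox1, which degrades haem, 35.1. The microglial genes P2ry12 and Tmem119 had 22.5, 19.4, 18.4 and 15.5 and 13.8, 13.9, 16.2 and 17.8 CPM per kb. Sall1, the microglial factor, had 3.39 ± 1.73 CPM per kb, the alveolar macrophage gene Car4 2.40 and Chil3 1.37. Clec4f, Vsig4 and Timd4, surface proteins of Kupffer and other resident macrophages, had no promoter peak.

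Interferon-stimulated promoters varied between the libraries. Of 24 genes 21 (87.5%) had an open promoter, against 46.0% of all genes with a listed TSS. The list median was 25.0 CPM per kb in library 1, 15.8 in library 2 and 12.6 in library 4. Library 3 lay between libraries 2 and 4. Over all genes with a promoter peak the median was 20.1, 20.3, 19.5 and 20.3 CPM per kb in libraries 1 to 4. The list median was thus above that of all genes in library 1 and below it in libraries 2 to 4. All 23 promoters with a peak were highest in library 1, against 26.3% over all genes with a promoter peak. The median log2 ratio of library 1 over the mean of the other libraries was 0.70, and 0.01 over all genes. Isg15, a ubiquitin-like modifier, had 36.2, 21.9, 17.7 and 14.6 CPM per kb, and Oasl1, of the oligoadenylate synthetase family, 36.8, 12.3, 10.3 and 11.2. The highest member, Stat2, differed less, with 53.4, 46.1, 44.3 and 45.2 CPM per kb. Without library 1 the mean list median was 13.8, against 16.6 with it. The motif of 2 GAAA runs set 2 bases apart, searched on both strands, was in 61.1% of the 18 RefSeq windows of these genes, against 3.4% of all windows.

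**Figure D5:**
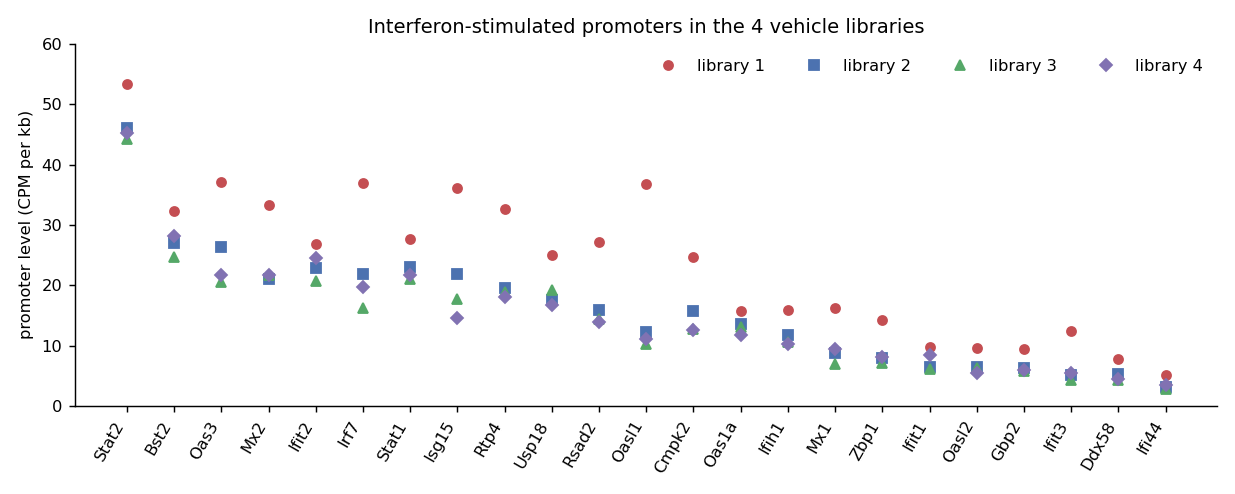
Level of the promoter peak of 23 interferon-stimulated genes in CPM per kb, ordered by their mean, with 1 symbol per library. Library 1 (red circles) is the highest of the 4 at every gene.

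The promoters that varied most between libraries were largely of the same kind. Among 10306 promoter peaks of at least 10 CPM, the 10 with the highest coefficient of variation between libraries were named. Library 1 was the highest of the 4 in 9 of these 10 and in 60 of the first 100, against 2866 of all 10306. They included Ifit3b with 27.3, 14.3, 11.2 and 11.4 CPM, the interferon regulator Irf7 with 24.5, 14.5, 10.7 and 13.1 CPM, and Cmpk2, Zbp1, Rsad2 and Cxcl10. Acod1, which makes itaconate, had 28.8, 19.1, 12.7 and 17.1 CPM, the citrate carrier gene Slc13a3 22.8, 11.8, 10.9 and 8.66 CPM, and the formyl peptide receptor gene Fpr1 15.7, 11.2, 7.58 and 9.28 CPM. The most variable of all, G530011O06Rik on chromosome X, followed another order, with 4.99, 5.48, 15.5 and 15.2 CPM. Library 1 was also the deepest of the 4, and the part of depth in this result was not tested.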

How the data were processed

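Per the labels' protocols, nuclei were tagged with Tn5 transposase, and libraries were amplified for 10 cycles and sequenced as 50 bp paired ends. The authors deposited counts per peak and library, whole numbers without normalisation, with each peak's length in bases, and a table of 71942 of these peaks with the signed distance to the nearest TSS. MACS2, featureCounts, Bowtie2, edgeR, SAMtools and fastp, and the mm10 build, are listed in the submitters' processing notes. Their roles, and how reads that match several places were counted, are not given in the sources used here.

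Only the 4 WT vehicle columns were used. CPM was the count over the column sum, and CPM per kb that value over the peak's length. TSSs of the deposited table were joined with those of the RefSeq promoter table (42995 in all), since the deposited ones alone put promoters of unlisted genes among distal peaks. On chromosome 18 only deposited TSSs were used. The coefficient of variation came from edgeR 4.0.16 (R 4.3.3) with filterByExpr and TMM over 92128 peaks, and per peak with a prior of 2 degrees of freedom, tested on simulated data. Differences between classes of peaks or sets of genes were taken within each library and tested by exact sign-flip permutation over libraries only. Pairs of libraries were compared by chi-square, and single libraries were checked by Dixon's test.

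Named were the 10 highest promoter and distal peaks by each scale, the 15 genes with most peaks, the 10 most variable promoters of at least 10 CPM, and the highest and lowest promoters of 21 gene lists with 323 entries. Members and lists were chosen with earlier results of these data known. Alternatives were another scaling, filter, promoter width, ranking and assignment, and leaving out each library. A few list members are counted but not reported here by name.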

Additional observations from a re-analysis of the deposited data

Results flagged for a closer look

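Of 82 values tested for a library far from the other libraries of the group, 3 stood out by Dixon's test, and chance alone flags about 1 in 20. That rate does not apply to the Zbp1 and Rsad2 peaks, which had been named for their high variation between libraries. The Zbp1 promoter peak had its highest value in library 1, with 22.4 CPM against 12.4, 11.2 and 12.8 CPM in libraries 2 to 4. Zbp1 is an interferon-induced sensor of Z-form nucleic acids. The Rsad2 promoter peak, at the gene of the antiviral enzyme viperin, also had its highest value in library 1, with 20.7 CPM against 12.2, 11.0 and 10.6 CPM. The median promoter level of the dendritic cell list was highest in library 4, with 14.1 CPM per kb against 12.8, 12.9 and 12.8 in libraries 1 to 3, a list that rests on 8 promoter peaks.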

How the results depend on the processing

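No result changed direction under the 89 alternatives computed, some of which could not move it, but sizes moved. The log2 difference of promoter over distal peaks was 1.57, and it was 1.35 for peaks with 10 or more counts in every library, 1.10 in the deposited comparison table alone, 1.83 and 1.27 with a promoter width of 500 bases and 2 kb, 2.92 with no length scaling and 1.73 with deposited TSSs only. All of these lie outside the SD of 0.03 between libraries. The log2 difference of macrophage over other-lineage promoters was 2.03 ± 0.08, and under the same settings it ran from 1.39 in the deposited comparison table alone to 2.87 with no length scaling. Open other-lineage promoters numbered 44, against 30, 21, 32, 61, 59 and 40 under these settings in the order given, and open macrophage promoters 61, against 57, 25, 55, 63, 61 and 61. No paired analysis was possible because a single group was described and each difference was taken within a library. A factor per library cancels in a difference taken within a library and in the share of counts in promoters. TMM or median-of-ratios scaling therefore could not move these. The counts of open promoters, which could have moved, stayed the same. The exact sign-flip tests cannot pass 0.05 with 4 libraries, so their p says nothing on stability.

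Restricting the peaks to those with 10 or more counts in every library gave 43.0% of counts in promoters, 10.4% in the top 1% and 2195 genes with 10 or more peaks. The peaks of the deposited comparison table alone, 71942 of the 144411 peaks, gave 26.4% and 9.01%, with 1702 genes. Why the shares fell there was not tested. A promoter width of 500 bases gave 38.1% of counts in promoters and one of 2 kb gave 45.2%. Ranking by CPM per kb put 11.4% of counts in the top 1%. After the data were seen, leaving out the 12 peaks above the highest promoter was added, with 41.8% and 13.01%, and so was using deposited TSSs only, with 33.8% of counts in promoters. Leaving out 1 library moved the promoter share between 41.4% and 41.6% and the coefficient of variation between 4.61% without library 1 and 7.31% without library 2.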

Other observations

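Chromosome X is present in a single copy in cells of male mice, against a pair of copies of each autosome. Its 472 promoter peaks had a median level of 12.04 ± 0.327 CPM per kb (mean and SD of 4 libraries), against 15.5 ± 0.313 for 18042 autosomal promoter peaks. The log2 difference was -0.36 ± 0.07 (SD, n = 4), with the smallest p that 4 libraries allow, 2 of 16 sign patterns, in the exact sign-flip permutation test. The medians of single autosomes ran from 12.05 to 19.7 CPM per kb. Chromosome X was thus level with the lowest of them, within the SD between libraries. For distal peaks the log2 difference was smaller, -0.07 ± 0.05, with 4.94 CPM per kb on chromosome X and 5.17 on autosomes.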
